A study of Mus musculus with 743 samples.

Results

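The genes described here are 8 adhesion genes that Schwann cells (SCs) use at nodes of Ranvier and along the axon: Gldn, Nfasc, Nrcam, Cntn1, Cadm1, Cadm2, Cadm3 and Cadm4. They were chosen by name and make up 8 of the 25700 genes in the deposited table, and all 8 passed the filter on low counts in every comparison. The cells were single SCs from sciatic nerves of mice on postnatal day 1, carrying one Cre transgene active in the SC lineage, one ReYFP reporter allele and one βAct-DsRed transgene on a C57bl/6J background. No treatment or mutant was compared, and all cells shared these alleles. eYFP-positive cells, thus cells with a history of that Cre, were sorted 1 per well into 2 plates after enzymatic dissociation at 37°C, and each plate held a separate pool of male and female pups. Reads were obtained with Smart-seq2, a full-length method without molecular identifiers. The plate was the replicate (n = 2), since cells of 1 plate shared their animals, cell suspension and pool of libraries. The technical run in the labels equals the plate, and what it covers is not stated.

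In a myelinated nerve, the axonal sodium channels cluster at nodes, the gaps between neighbouring myelin segments. Gliomedin (Gldn) is released by SC microvilli at the node and binds the axonal proteins NrCAM and the 186-kDa neurofascin isoform, while the glial 155-kDa neurofascin isoform (also Nfasc) binds axonal contactin-1 (Cntn1) and Caspr at the paranode. Under the myelin segment itself, the SynCAM proteins Cadm1 to Cadm4 (also called nectin-like proteins) join SC and axon, with Cadm4 mainly on the glial side and Cadm3 and Cadm2 mainly on the axonal side. Ncmap is a membrane protein of myelinating SCs.

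Cells with at least 1500 detected genes were kept, 621 of 743 wells (287 on plate 1 and 334 on plate 2), and all values are CPM (counts scaled to a total of 1000000 per cell or summed class). A cell was called cycling where Mki67 and Top2a together reached 50 CPM, and promyelinating where it was not cycling and Ncmap reached 50 CPM. The remaining cells are called other noncycling cells. There were 53 and 57 cycling, 59 and 60 promyelinating and 175 and 217 other cells on plates 1 and 2. Only 5 noncycling cells lay between 20 and 50 CPM of Ncmap and 5 between 50 and 100 CPM. The other cells were divided further into those with Ngfr or L1cam at 50 CPM or more (56 and 90 cells), those without either but with Cdkn1c, a cell cycle inhibitor, at 500 CPM or more (38 and 53, called Cdkn1c-high) and those with none of these (81 and 74, called unmarked). Median depth per cell lay between 701288 and 950150 reads in the 3 main classes, and promyelinating cells had more detected genes (medians 3690 and 3550) than other cells (2775 and 2819). The neuronal marker list of 9 genes summed to 17.5 and 31.3 CPM in promyelinating, 18.2 and 23.005 CPM in other and 21.2 and 19.7 CPM in cycling cells on plates 1 and 2, and its defining members Rbfox3 and Syt1 were at 0 in every cell. A list of 3 SC markers summed to 443 to 757 CPM in the classes of each plate, while Cdh5 and Kdr of endothelial, Ptprc and Tyrobp of immune, Acta2 and Rgs5 of mural and Pdgfra of fibroblast cells were at 0 in every cell. Other members of these lists were read. The 4 mural markers summed to 56.8 and 35.1 CPM in promyelinating, 38.2 and 53.4 in other and 36.7 and 24.8 in cycling cells. The 4 immune markers summed to 18.4 and 2.77 CPM in promyelinating, 14.9 and 20.7 in other and 6.34 and 6.17 in cycling cells. The 5 endothelial markers summed to at most 2.91 CPM in these main classes. The 4 fibroblast markers summed to 528 and 625 CPM in promyelinating, 932 and 1036 CPM in other and 842 and 1201 CPM in cycling cells, and their part in the results was not tested. Almost all of this was Col1a1, at 501 and 605 CPM in promyelinating, 896 and 1025 in other and 842 and 1201 in cycling cells.

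Upstream sequences of 3 of the genes are shown as examples of different patterns. Gldn was read almost only beside Ncmap, and Cadm4 was read in all classes. Nrcam was higher in promyelinating cells, but did not pass the test against other noncycling cells. Cadm1, which was lower in promyelinating cells, could not be shown because no promoter was found for it. Each is the 250 bases before the start of the gene in RefSeq's table for GRCm38.p6, on the strand of the gene, from 5′ to 3′. Capitals mark matches to GTGGGCG, a short Egr-family motif, on either strand.
Gldn, chr9:54286236-54286485, plus strand: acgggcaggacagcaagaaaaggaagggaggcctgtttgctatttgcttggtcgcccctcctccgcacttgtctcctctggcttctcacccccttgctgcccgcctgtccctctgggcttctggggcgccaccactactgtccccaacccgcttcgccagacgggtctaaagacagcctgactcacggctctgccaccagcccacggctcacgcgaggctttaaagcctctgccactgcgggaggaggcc
Nrcam, chr12:44328635-44328884, plus strand: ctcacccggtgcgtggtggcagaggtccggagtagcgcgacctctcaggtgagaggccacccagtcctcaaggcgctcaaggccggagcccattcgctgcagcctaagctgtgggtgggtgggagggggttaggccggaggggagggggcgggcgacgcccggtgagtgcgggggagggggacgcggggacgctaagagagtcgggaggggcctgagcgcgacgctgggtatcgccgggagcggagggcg
Cadm4, chr7:24481773-24482022, plus strand: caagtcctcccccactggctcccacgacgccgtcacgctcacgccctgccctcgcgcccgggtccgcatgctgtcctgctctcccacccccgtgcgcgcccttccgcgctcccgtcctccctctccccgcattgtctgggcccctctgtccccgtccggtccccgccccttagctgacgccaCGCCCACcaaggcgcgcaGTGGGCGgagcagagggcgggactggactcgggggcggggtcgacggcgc
The motifs searched on both strands of these windows were ACAAAG (Sox family), GTGGGCG (Egr family), GGAATG (Tead family) and ATGCAAAT (octamer). Of 32851 windows of the same length, 16.5%, 7.02%, 12.6% and 1.60% held them, respectively. RefSeq promoters were found for 7 of the 8 genes, all but Cadm1. The Gldn and Nrcam windows held none of the 4 motifs, while the Cadm4 window held GTGGGCG with its first base 50 bases before the start and its reverse complement from 68 bases before it. The only other match was GGAATG in the Cadm3 window, 71 bases before the start. These are matches of letters, and no binding was measured.

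Per length of exon, the genes covered a wide range of levels over all cells. The mean over both plates was 41.0 RPKM (reads per kilobase of exon, scaled to the same total of reads) for Cadm1, 13.9 for Cadm4, 6.71 for Cntn1, 3.29 for Gldn, 3.16 for Nrcam, 0.89 for Cadm2, 0.51 for Cadm3 and 0.06 for Nfasc, against 133.5 for Ncmap. Cadm1 and Cadm4 were thus the main SynCAM transcripts of these cells, and Cadm2, Cadm3 and Nfasc were read in few cells.

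**Figure D1:**
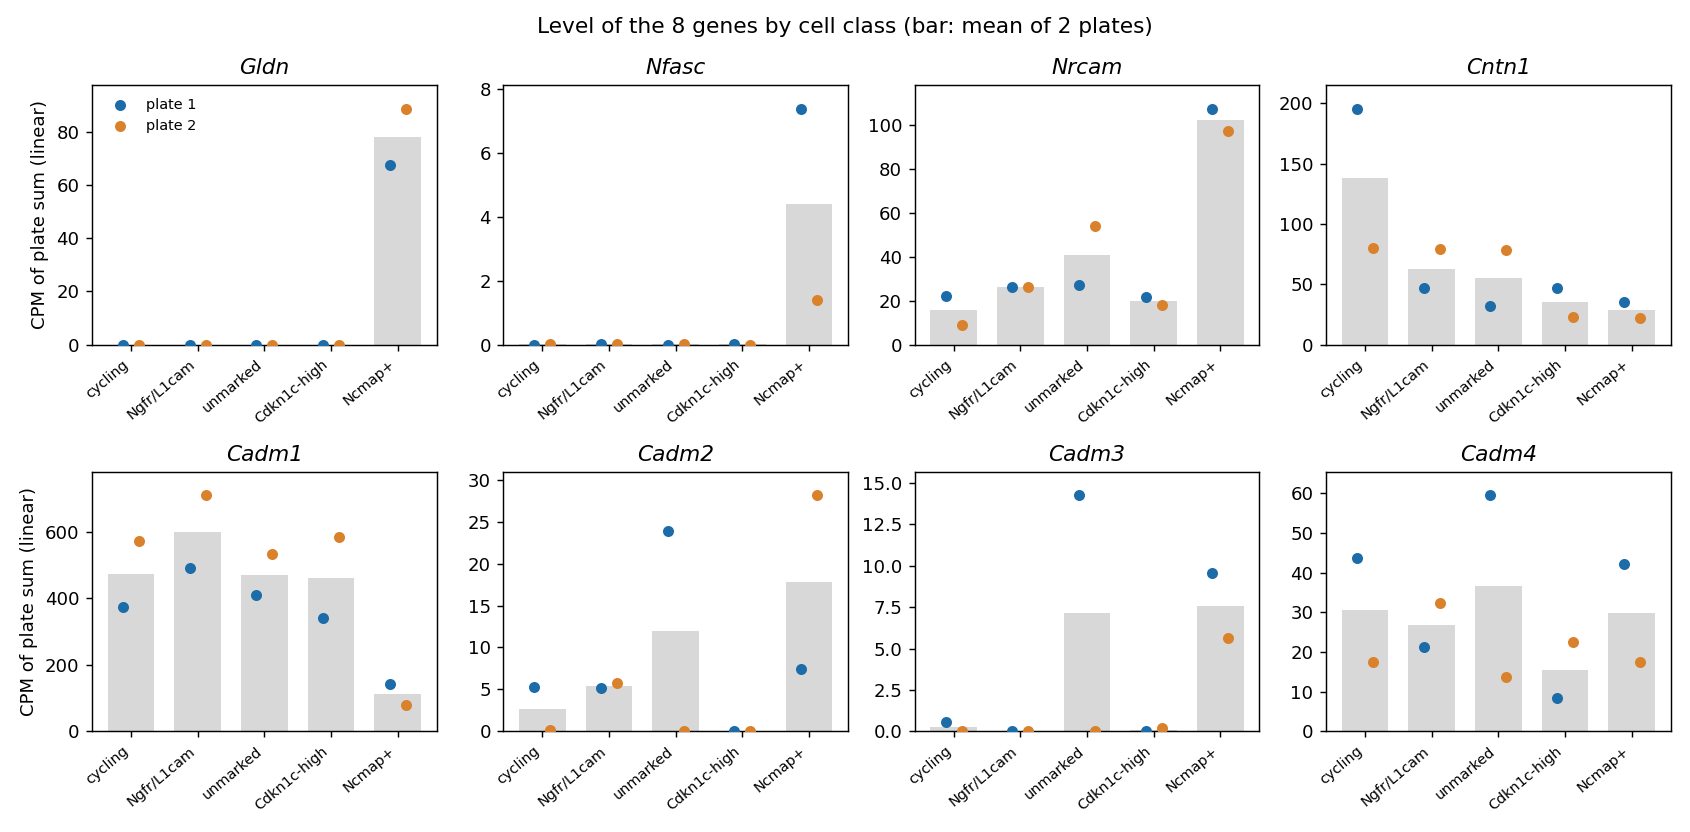
Level of each gene (CPM of the summed cells of a plate, linear axes that differ between panels) in the 5 cell classes; points are the 2 plates and grey bars their mean. Gldn was at 67.5 and 88.8 CPM in Ncmap-positive (promyelinating) cells and at or near 0 elsewhere, and Cadm1 was lowest there, at 142 and 80.5 CPM.

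Which adhesion genes were read where Ncmap was on was asked by comparing promyelinating with other noncycling cells, with edgeR's quasi-likelihood test on the sums per plate and class. Of the 8 genes, 1 was higher (Gldn) and 1 lower (Cadm1) at an adjusted p under 0.05, against 1.78% of the 13289 genes tested (0.489% higher and 1.29% lower). The median log2 fold change of the 8 genes was 1.23, beside −0.07 over all genes tested. This median lies between Cadm3 (1.17, SE 2.47) and Cadm2 (1.28, SE 1.62), neither of which passed the test. It thus does not show a rise of the genes as a group. Against cycling cells, 2 were higher (Gldn and Nrcam) and 2 lower (Cadm1 and Cntn1), where 5.93% of all genes were called (2.11% higher and 3.82% lower). Both comparisons share the promyelinating cells. Between cycling and other noncycling cells, edgeR called 0 of the 8 genes (1 at an unadjusted p under 0.05, Cntn1), and DESeq2 also called 0. Of all genes edgeR called 0.993% (0.88% higher and 0.113% lower). Gldn and Nfasc were at the floor in both classes and passed the filter through the promyelinating sums of the same fit. This comparison could thus not decide on Gldn and Nfasc.

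Gldn, the nodal ligand (ENSMUSG00000046167, GRCm38 chr9:54286486-54341786, plus strand), had 3521 and 4623 reads in the promyelinating cells of plates 1 and 2, which gave 67.5 and 88.8 CPM (78.2 ± 15.03, SD, n = 2 plates). The other noncycling cells held 0 reads on plate 1 and 1 read on plate 2, and the cycling cells held 0 on both. The groups did not overlap on any plate. Pooled over plates, the ratio of promyelinating to other cells was 26006 on 8144 reads against 1 read (95% counting interval 4666 to 1027315), and the level was at least 2411-fold higher than in cycling cells, with 3 reads over the class taken as the floor. Such intervals cover counting error only, since reads without molecular identifiers are not independent molecules. The edgeR adjusted p was 0.00167 against other cells and 0.00101 against cycling cells, and the fitted fold change is not given because the groups compared with were at the floor. Gldn passed the filter on low counts only through the promyelinating sums, where it was high. These p-values thus add no support apart from the read counts above.

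Gldn was read in a minority of the Ncmap cells. Of the promyelinating cells, 22 of 59 (37.3%) and 27 of 60 (45.0%) held at least 1 Gldn read, and after thinning each cell to 50000 reads the shares were 32.2% and 38.6%. Among cells with a read the median was 146 CPM on plate 1 and 135 CPM on plate 2, and the highest cells reached 853 and 904 CPM. No single cell held over 24.03% of the Gldn reads of its plate, so the level did not rest on 1 cell. The 0 of 110 cycling cells with a read allow a share of up to 3.298% (exact binomial 95% interval). This interval treats cells as independent and leaves out differences between plates and animals.

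One well bears on this result. A well of plate 2 with 1453 genes and 912306 reads fell under the minimum of 1500 genes and held 471 Gldn reads (516 CPM) with Ncmap at 1.096 CPM. Emid1 was at 1319 CPM in it, and Mag and Sox10 were at 0. When the minimum was lowered to 1000 genes this well joined the other noncycling cells, and the edgeR call of Gldn against them was lost (log2 fold change 5.94, adjusted p = 0.328). With the same minimum but without that well, an alternative chosen after the data were seen, the adjusted p was 0.00156.

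Nfasc, which gives both the glial and the axonal neurofascins (ENSMUSG00000026442, chr1:132564690-132741797, minus strand), was at 7.38 and 1.38 CPM in promyelinating cells. Other cells held 2 reads on each plate, and cycling cells 0 and 1. All reads outside the promyelinating class thus came to 5, against 457 inside it. A single cell at 507 CPM held 91.2% of the plate 1 reads, and the shares of promyelinating cells with a read were 11.9% (7 cells) and 6.67% (4 cells). The difference from other cells did not pass the edgeR test (adjusted p = 0.357), whereas DESeq2 gave an adjusted p of 0.00439. Counts per gene cannot tell the neurofascin isoforms apart.

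Nrcam, known mainly as an axonal receptor of gliomedin that glia also release (ENSMUSG00000020598, chr12:44328885-44601964, plus strand), was at 107.6 and 97.4 CPM in promyelinating cells, 25.8 and 35.1 CPM in other cells and 22.01 and 9.19 CPM in cycling cells. The promyelinating sums lay above all others on both plates. Nrcam was 2.65 (SE 0.56) higher on the log2 scale than in cycling cells, with an adjusted p of 0.0292 in edgeR. Without plate 2 that p was 0.0565, and the difference no longer passed. Relative to other noncycling cells it was 1.83 (SE 0.54) and did not pass, with an adjusted p of 0.197, a range of 0.0136 to 1.0 over 15 alternatives, and a higher level in 2 of 2 plates. Of the alternatives 2 called it, DESeq2 (0.0136) and the fit on thinned cells (0.0248).

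The share of cells with an Nrcam read was 62.7% and 38.3% in promyelinating, 12.6% and 10.6% in other and 11.3% and 8.77% in cycling cells on plates 1 and 2. Cells with the transcript held it at a like level inside and outside the class, in an order that differed between plates. Their median was 158 and 144 CPM in other cells with a read, beside 120 and 193 CPM in promyelinating ones. The plates differed more for Nrcam than for Gldn in the share of promyelinating cells, while the SD of its level over the plates was 7.26 CPM.

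Cntn1, the contactin that forms the axonal paranodal complex (ENSMUSG00000055022, chr15:92051165-92341967, plus strand), went the other way. It was at 196 and 80.5 CPM in cycling cells, 39.7 and 64.8 CPM in other cells and 35.2 and 22.5 CPM in promyelinating cells. On each plate the order was cycling, other, promyelinating, but the lower cycling sum exceeded the higher sum of other cells by less than the spread between plates. From cycling to promyelinating cells it fell by 2.33 on the log2 scale (SE 0.54), with an adjusted p of 0.0437 in edgeR. In edgeR the adjusted p was 0.0863 without plate 1 and 0.0188 without plate 2, so this call was lost without plate 1. Cycling against other cells gave 1.55 (SE 0.53, adjusted p = 0.351, higher in 2 of 2 plates). Reads of Cntn1 were found in 66.0% and 43.9% of cycling, 21.1% and 31.8% of other and 23.7% and 18.3% of promyelinating cells.

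Cadm1, or SynCAM1 (ENSMUSG00000032076, chr9:47530173-47857637, plus strand), was the most abundant of the 8 genes per length and was lower in promyelinating cells than in both other classes. It was at 375 and 572 CPM in cycling cells, 420 and 607 CPM in other cells and 142 and 80.5 CPM in promyelinating cells. The promyelinating sums were the lowest on both plates and did not overlap the others. The difference on the log2 scale was −2.12 (SE 0.34; adjusted p = 0.0180 in edgeR) against other cells and −2.14 (SE 0.34, adjusted p = 0.00849) against cycling cells. Without plate 2, the first was −1.51 with an adjusted p of 0.159.

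The fall was seen both in the number of cells with the transcript and in the level of those that held it. Cadm1 reads were found in 88.0% and 88.9% of other cells and 90.6% and 94.7% of cycling cells, but in 52.5% and 43.3% of promyelinating cells. The median over all cells of the class was 286 and 516 CPM in other cells and 2.94 and 0 CPM in promyelinating cells. Among cells with a read it was 372 and 559 CPM in other and 170 and 180 CPM in promyelinating cells.

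A list of 8 dissociation-response genes moved with the same classes, at 5842 and 6380 CPM in other, 4726 and 7160 CPM in cycling and 2205 and 2418 CPM in promyelinating cells. Atf3, one of them, reached 50 CPM in 28.0% and 30.9% of other cells and in 0 and 1 promyelinating cells. With all Atf3-positive cells left out, an alternative chosen after the data were seen, Cadm1 was at 393 and 571 CPM in other cells and 142 and 77.9 CPM in promyelinating cells. The log2 fold change was then −2.05, with an edgeR adjusted p of 0.0601 in a fit that called 126 genes in place of 237. Leaving out these cells also ended the calls against cycling cells of Nrcam (2.4985 on the log2 scale, adjusted p = 0.109) and Cntn1 (−1.83, adjusted p = 0.0791) but not those of Gldn and Cadm1.

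Of the other SynCAM genes, edgeR called none in the comparisons of promyelinating, other and cycling cells over all cells and both plates. Cadm4, the main glial SynCAM (ENSMUSG00000054793, chr7:24482023-24504539, plus strand), was at 42.3 and 17.4 CPM in promyelinating, 37.2 and 22.5 CPM in other and 43.8 and 17.6 CPM in cycling cells. The plates differed more than the classes, and the log2 fold change between promyelinating and other cells was 0.07 (SE 0.71, edgeR adjusted p = 0.994), negative under 5 of the 15 alternatives. Its reads were found in 69.7% to 84.2% of the cells of each class and plate, at 50 CPM or more in only 10.1% of promyelinating cells and 10.5% of the remaining noncycling cells. The SE of 0.71 leaves room for a difference of a size that was called for other genes.

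Cadm2 (ENSMUSG00000064115, chr16:66655421-67620908, minus strand) was at 7.48 and 28.1 CPM in promyelinating and 13.3 and 2.02 CPM in other cells. The order of the classes thus differed between plates, and 1 cell held 77.4% of the promyelinating reads of plate 2. Reads were found in 15.3% and 13.3% of promyelinating cells but in 2.86% and 1.84% of other cells (edgeR adjusted p for the level = 0.897). In Cdkn1c-high cells it had 0 reads on both plates. Against these cells the edgeR adjusted p of Cadm2 in promyelinating cells was 0.355, but 0.0154 without a filter on low counts, and DESeq2 called it. Against cycling cells the edgeR adjusted p was 0.422, but 0.0304 without plate 1.

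Cadm3 (ENSMUSG00000005338, chr1:173333258-173367695, minus strand) was at 9.53 and 5.65 CPM in promyelinating cells, in 15.3% and 16.7% of them. Other cells were at 6.97 and 0.05 CPM, and 1 cell held 99.9% of the reads of plate 1. Apart from that cell, Cadm3 was read in 1 other cell of each plate, and the adjusted p for the level was 0.952 in edgeR. An exon of Cadm3 overlaps Ackr1 on the same strand, so its counts are uncertain, as are those of Cadm2, which overlaps a gene on the opposite strand that has no entry in the table, because the use of strand in counting is not stated.

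Which genes start with Ncmap, and which before it, was described cell by cell over the 511 noncycling cells, of which 23.3% were Ncmap-positive. All cells were of postnatal day 1, so the values show which genes were read together and no order in time. All 36 cells with Gldn at 50 CPM or more were Ncmap-positive, 15 on plate 1 and 21 on plate 2. They made up 30.3% of the 119 Ncmap-positive cells, so most cells with Ncmap held no such Gldn level. Of the 75 cells with Nrcam at 50 CPM, 43 (57.3%) were Ncmap-positive, 24 of 40 on plate 1 and 19 of 35 on plate 2. Nrcam thus reached this level in 36.1% of the cells with Ncmap and also in 8.16% of those without it.

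Cadm1 showed the opposite pattern, with 46 of 355 positive cells (12.96%) also Ncmap-positive, and it reached 50 CPM in 38.7% of cells with Ncmap and 78.8% of cells without. For Cadm4 (12 of 53 cells, 22.6%) the Ncmap-positive share was close to the 23.3% of all noncycling cells, and for Cntn1 (13 of 85 cells, 15.3%) it was lower. Cadm3 passed 50 CPM in 8 cells, 6 of them Ncmap-positive, Cadm2 in 17 cells, 8 of them Ncmap-positive, and Nfasc in 1, which was Ncmap-positive. Among other genes of myelinating SCs, Drp2, a partner of periaxin, passed 50 CPM in 6 cells, and like those of Gldn all were Ncmap-positive, while Mag, Egr2 and Prx also reached it in cells without Ncmap. Of the cells positive for Mag, a receptor on the adaxonal SC membrane, 54.7% were Ncmap-positive, of those positive for Egr2, the transcription factor of myelination, 38.0%, and of those positive for Prx, a protein of the abaxonal SC membrane, 30.5%.

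Along the level of Ncmap the genes separated further. No Gldn read was found in the 13 noncycling cells with Ncmap above 0 and under 50 CPM or in the 12 cells between 50 and 200 CPM, which allows shares of up to 24.7% and 26.5% (exact binomial 95% interval). Gldn was read in 7 of 41 cells between 200 and 1000 CPM (17.1%, interval 7.15 to 32.1%) and in 42 of 66 cells over 1000 CPM (63.6%, 50.9 to 75.1%). All these intervals treat cells as independent and leave out differences between plates and animals. Nrcam was read in 11.3% of the 379 cells without an Ncmap read, 4 of the 12 cells at 50 to 200 CPM, 34.1% at 200 to 1000 CPM and 63.6% above. Nrcam was thus found in cells of low Ncmap in which no Gldn was read, although the lowest positive range holds 12 cells.

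Cadm1 was read in 89.2% of the 379 cells without Ncmap, in 75.0% of the 12 cells at 50 to 200 CPM, in 58.5% of the 41 at 200 to 1000 CPM and in 36.4% of the 66 above 1000 CPM. Cadm3 was read in 0.79% of cells without Ncmap and in 27.3% of those above 1000 CPM, Cadm2 in 2.11% and 22.7%, and Nfasc in 1.06% and 16.7%. These shares pool both plates, and the ranges were set after the data were seen. Median depth was 740662 reads per cell at 200 to 1000 CPM and 968322.5 above, and after thinning to 50000 reads Gldn was found in 12.8% and 54.5% of these ranges and Cadm1 in 46.2% and 31.8%.

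**Figure D2:**
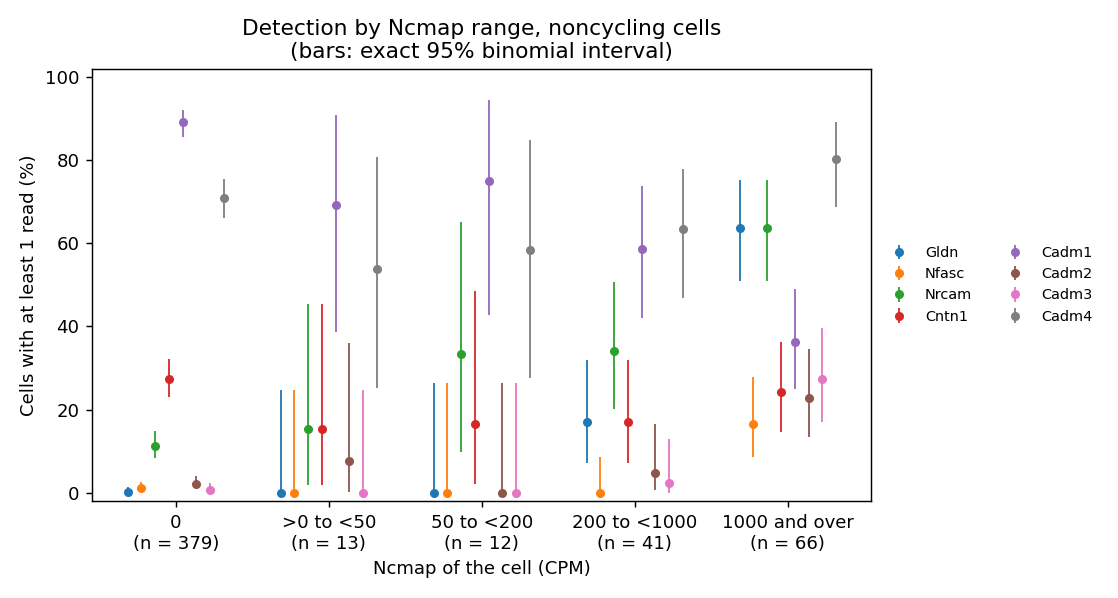
Share of noncycling cells with at least 1 read of each gene (percent) by the Ncmap level of the cell; bars are exact 95% binomial intervals, which cover counting error only. Gldn rose from 0 of 12 cells at 50 to 200 CPM to 63.6% of 66 cells over 1000 CPM, while Cadm1 went from 75.0% to 36.4%.

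Within plates, promyelinating cells were also divided at the median Ncmap level of their plate, into 30 and 30 cells with less and 29 and 30 with more. This divides the same cells by the same gene as the ranges above, so it adds no separate evidence. Gldn was read in 16.7% of the lower cells on both plates and in 58.6% and 73.3% of the higher cells. The higher cells were deeper, with medians of 969498 and 995431.5 reads beside 761466.5 and 753307.5, and after thinning each cell to 50000 reads, which left out 2 lower cells of plate 2, the shares were 13.3% and 10.7% in the lower and 51.7% and 63.3% in the higher cells. Its summed level was 40.4 and 61.2 CPM in the lower and 90.3 and 110.1 CPM in the higher cells (a difference of 0.98 with an SE of 0.69 on the log2 scale, adjusted p = 0.674 in edgeR). The larger difference was thus in the share of cells, and the level did not pass the test. Cadm1 was at 248 and 95.6 CPM in the lower and 52.2 and 68.9 CPM in the higher cells (−1.51, SE 0.44, adjusted p = 0.420). In this comparison edgeR called 0 of the 8 genes (1 at an unadjusted p under 0.05, Cadm1) and 0.0529% of all genes (0.00756% higher and 0.0453% lower), and DESeq2 called 1, Cadm1 (adjusted p = 0.0132).

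**Figure D3:**
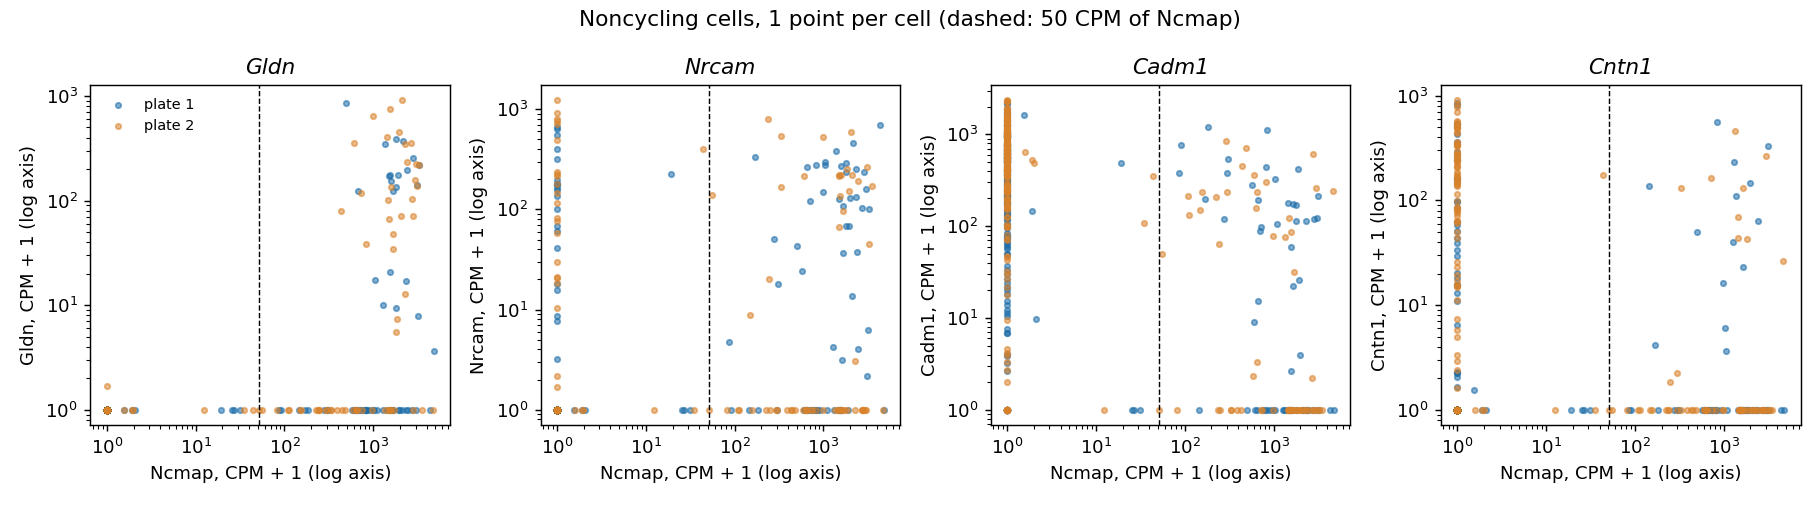
Level of Gldn, Nrcam, Cadm1 and Cntn1 against Ncmap in each of 511 noncycling cells (CPM + 1, log axes; the dashed line is 50 CPM of Ncmap). Cells with Gldn lie at the right of the line but for 1 cell with 1 read, whereas cells with Nrcam, Cadm1 and Cntn1 lie on both sides.

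Noncycling cells with Ncmap under 50 CPM were compared by marker group. Whether these cells would later express Ncmap was not measured, so the groups are not stages in a known order. The 3 groups of other noncycling cells held no Gldn read but 1, in an unmarked cell of plate 2. Nrcam was at 26.1 and 26.1 CPM in Ngfr or L1cam cells, 27.3 and 54.1 CPM in unmarked cells and 21.9 and 17.9 CPM in Cdkn1c-high cells. Cadm1 was at 491 and 709 CPM, 411 and 532 CPM, and 341 and 583 CPM, respectively. Nrcam was lowest in the Cdkn1c-high cells of both plates and Cadm1 highest in the Ngfr or L1cam cells of both, but for Cadm1 the ranges of the 3 groups overlapped. Between Cdkn1c-high cells and the remaining other cells, edgeR called 0 of the 8 genes (1 at an unadjusted p under 0.05, Cadm2, which had 0 reads in the Cdkn1c-high class) and 0.0666% of all genes (0.0444% higher and 0.0222% lower), whereas DESeq2 called 1, Cadm2. Gldn and Nfasc were at the floor in all of these groups, so this comparison could not decide on them.

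Between promyelinating and Cdkn1c-high cells, Gldn was higher (edgeR adjusted p = 0.0199) and Cadm1 lower (log2 fold change −2.03, SE 0.35, adjusted p = 0.0207), where 0.562% of all genes were called (0.118% higher and 0.444% lower). Here too Gldn passed the filter only through the promyelinating sums. Nrcam did not pass (2.38, SE 0.66, adjusted p = 0.205, higher in 2 of 2 plates). Cdkn1c-high cells had dissociation-response sums of 3303 and 3728 CPM, beside 2205 and 2418 CPM in promyelinating cells. Cadm1 was at 341 and 583 CPM in Cdkn1c-high cells. The part of the dissociation response in the Cadm1 difference was not tested. Gldn lost this call in edgeR without plate 1 (adjusted p = 0.0528) and without plate 2 (0.109), and Cadm1 without plate 2 (0.131).

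Within the promyelinating class, cells with and without Gldn differed in other genes as a description. The 15 and 21 cells with Gldn at 50 CPM had median Ncmap levels of 1783 and 2056 CPM, beside 1004 and 631 CPM in the 44 and 39 cells without. Mag was at 643 and 724 CPM with Gldn and 416 and 272 CPM without, and Cadm1 at 67.6 and 14.4 CPM with Gldn and 166 and 120 CPM without. Cells with Gldn also had more detected genes (medians 4212 and 3661, beside 3650.5 and 3279), and the part of this in the differences was not tested.

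Gldn and Nrcam were together at 50 CPM in 8 of 59 and 8 of 60 promyelinating cells, 8 of 15 and 8 of 21 Gldn cells and 8 of 24 and 8 of 19 Nrcam cells. Gldn and Cadm1 were together in 5 and 3 cells, and Nrcam and Cadm1 in 9 and 2. Neither nodal gene was thus read only in the cells of the other.

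The genes most like each of the 8 were ranked by Pearson's correlation of log2(CPM + 1) across the 234 and 277 noncycling cells of the plates, averaged over plates, among about 9256 genes found in at least 5% of cells. Cells of a plate share their library preparation and differ in depth, so these values are descriptions. Gldn was most like Ncmap (r = 0.61), Emid1 (0.58) and Ecscr (0.55), although the last was at 0.79 on plate 1 and 0.31 on plate 2. Nrcam was most like Ncmap (0.40), Emid1 (0.38) and Elmo1 (0.37), the first 2 of which were also nearest to Gldn. Ncmap defined the promyelinating class, so its places in these rankings restate the class differences and add no separate evidence. Cadm1 was most like Zfp36l1 (0.40), Arpc1b and H3f3b (0.38 each), and Ncmap was near the bottom of its ranking (−0.48, place 9254 of 9256). Cadm3 was most like Slc36a2 (0.39), and for Nfasc, Cadm2, Cadm4 and Cntn1 no gene reached 0.3.

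Other genes of the same contact sites were taken from 3 lists and tested in the same edgeR fit of promyelinating against other noncycling cells. Of the paranodal and juxtaparanodal list, 17 of 20 genes were tested, 3 were higher and 1 lower, beside 0.489% higher and 1.29% lower over all genes tested, with a median log2 fold change of 0.11. The higher ones were Mpp6, a membrane scaffold protein (91.8 and 103 CPM in other and 611 and 653 CPM in promyelinating cells; 2.78, SE 0.24, adjusted p = 0.000837), Cldn19, the claudin of SC tight junctions (135 and 101.5 CPM against 743 and 404 CPM; 2.35, SE 0.36, adjusted p = 0.0160), and Epb41l2, the band 4.1G protein of SCs (1.29, adjusted p = 0.0227). Its relative Epb41l3, band 4.1B, fell by 2.12 on the log2 scale (186 and 200 CPM to 48.0 and 36.3 CPM, adjusted p = 0.00994). The 4.1 proteins join SynCAMs and other membrane proteins to the cytoskeleton, and these 2 genes moved in opposite directions on both plates. Of the 3 that were not tested, Cntn2, Cntnap2 and Sptbn4, no cell held a read. Lgi4, a secreted SC ligand of axonal contact, was at 106 and 120 CPM in other and 106 and 123 CPM in promyelinating cells (0.11, SE 0.34, adjusted p = 0.974).

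Of the list of nodal microvilli and nodal matrix, 11 of 13 genes were tested, 0 were higher and 2 lower, beside 0.489% and 1.29% of all genes tested, with a median of −0.15. Those lower were the syndecan Sdc4 (−1.57, adjusted p = 0.0257) and the matrix glycoprotein Tnc (−2.54, adjusted p = 0.0192). Ezr, the ezrin of SC microvilli, was at 326 and 243 CPM in other and 590 and 525 CPM in promyelinating cells (1.04, SE 0.27, adjusted p = 0.127). Its relatives Rdx and Msn had log2 fold changes of 0.04 each.

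Of the list of other axon-contact adhesion proteins, 16 of 16 were tested, 1 was higher and 4 lower, beside the same 0.489% and 1.29% of all genes, with a median of −1.52. Mag rose from 30.8 and 75.8 CPM to 473 and 439 CPM (3.19, SE 0.50, adjusted p = 0.0172). The 4 that fell were Chl1 (−3.82, adjusted p = 0.00355), Mcam (−2.76, adjusted p = 0.000673), Ncam1 (−1.51, adjusted p = 0.00986) and L1cam (−5.08, adjusted p = 0.0063). L1cam overlaps Arhgap4 on the same strand, Ezr overlaps Sytl3 and Lgi4 overlaps Fxyd3 on the opposite one, and Cldn19, Tnc, Ncam1 and Mcam overlap opposite genes without an entry in the table, so the counts of all these are uncertain. Against the median of −0.07 over all genes, the list lay lower, and no test of the list was made.

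**Figure D4:**
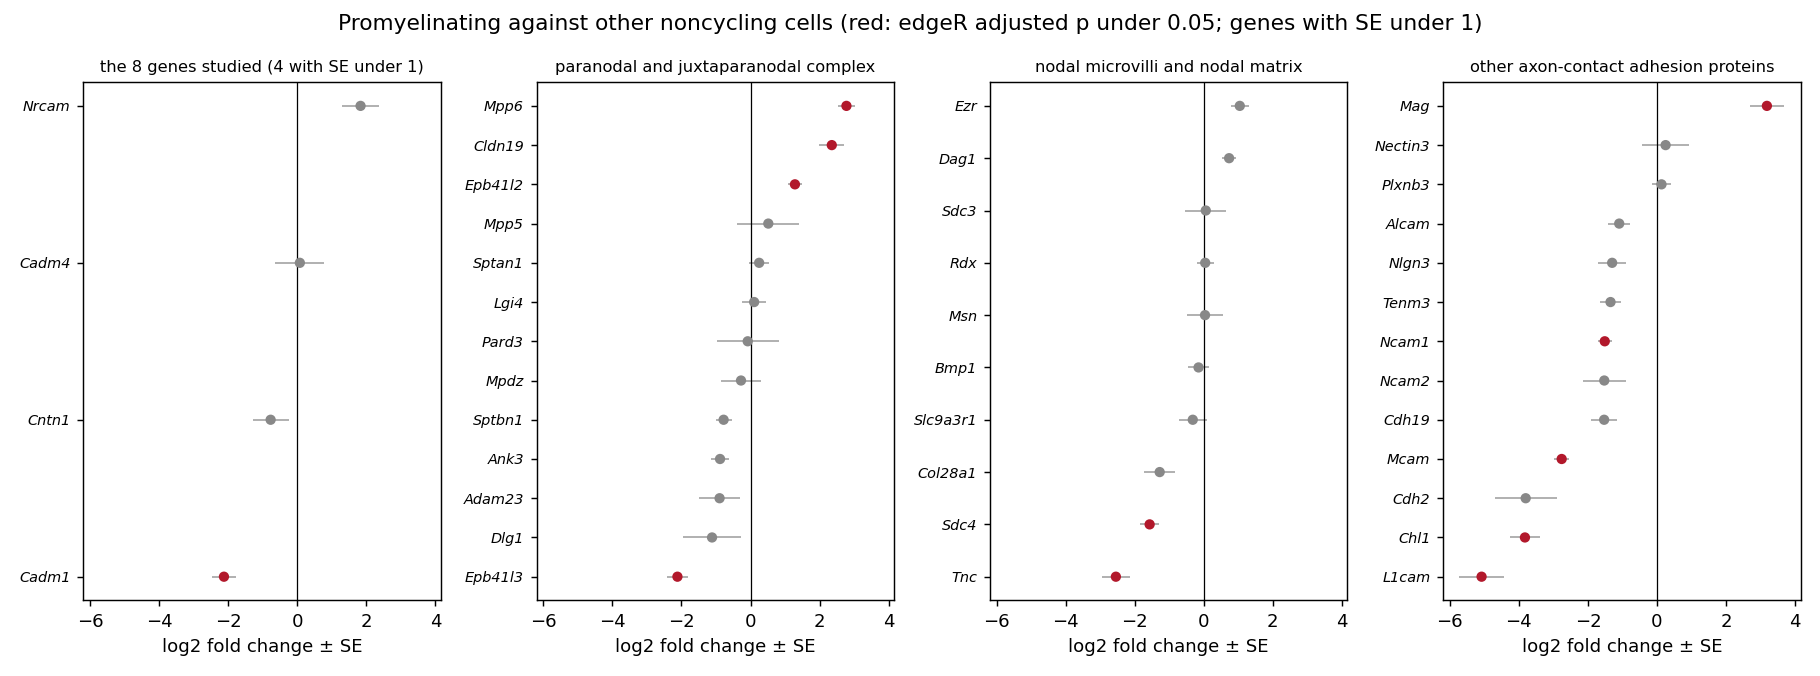
Log2 fold change ± SE of promyelinating against other noncycling cells for genes with an SE under 1, from the edgeR fit; red marks an adjusted p under 0.05. Cadm1, Epb41l3, Sdc4, Tnc and 4 of the axon-contact genes lie at the left, and Mpp6, Cldn19, Epb41l2 and Mag at the right; Gldn, Nfasc, Cadm2 and Cadm3 have larger SEs and are not drawn.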

How the data were processed

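RNA of single SCs was sequenced with Smart-seq2 in 2 plates. The table deposited by the authors holds raw counts, 1 value for each gene in each well, with no normalisation. According to the labels, the authors used bcl2fastq, STAR 2.6.1c and featureCounts with GRCm38.p5; the methods of the study name another STAR version and a human assembly, although all gene IDs are mouse IDs, and strand use is not stated. Of the 25700 IDs, 25587 matched GENCODE M21, and 0 columns were without a sample.

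The plate of a well came from its title. Wells with under 1500 genes were left out, 122 of 743. The plates held 276327564 and 274141117 reads. No doublet caller was run on these cells sorted 1 per well. The counts of each class were added up within a plate, and differences were tested in edgeR 4.0.16 (R 4.3.3, TMM, filterByExpr, quasi-likelihood) over 6 sums; finer classes used 10 and 8 sums. P-values were adjusted by Benjamini-Hochberg over all genes tested, and SE is the log2 fold change over the root of F. Genes that define the classes were left out of call counts. In simulated counts for the first comparison (13292 genes), 52% of 8-fold and 1% of 2-fold changes were recovered. Sums of a plate share their animals, and their deviations correlated (r = 0.200, 0.101 and 0.147 over 3705 genes), so the plate was also fitted as a block. DESeq2 1.42.0, limma 3.58.1, other filters, thresholds, scalings and leaving out a plate were the others.

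The 8 genes and all lists were chosen with earlier results of these data known. The named genes were the 8 members, the called genes of the lists and Mag, L1cam, Ncam1, Epb41l3, Cldn19, Ezr and Lgi4, and for each member up to 3 genes with a mean correlation of at least 0.3; Rdx, Msn, Egr2, Prx, Atf3 and the genes of the single well were named after their values were seen. One item withheld from the text is not reported here.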

Additional observations from a re-analysis of the deposited data

Results flagged for a closer look

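The 122 wells with under 1500 detected genes were outside all comparisons, and 4 of the 8 genes were read in them above the limit that a count of 0 allows. Gldn was at 114.3 CPM over the 39 wells of plate 2, all of it from 1 well with 471 reads, and had no value above that limit on plate 1. Cadm1 was at 60.6 CPM over the 83 wells of plate 1 (8 wells with a read) and 430 CPM over the 39 wells of plate 2 (2 wells). Cadm4 was at 87.0 CPM on plate 1 (11 wells) and 50.7 CPM on plate 2 (5 wells). Cntn1 was at 26.7 CPM on plate 1 (7 wells) and 23.8 CPM on plate 2 (1 well). No explanation of these values was tested.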

How the results depend on the processing

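With 2 plates per class, changes of a few fold often could not be called, and genes of few reads rest on single cells. Of 122 values of the 8 called differences under alternatives, 100 kept their call, 22 lost it and 0 reversed. In limma on mean CPM with pseudocount 1, Cadm1 was −2.14 against other cells (adjusted p = 0.103), −2.01 against cycling cells (0.0521) and −2.05 against Cdkn1c-high cells (0.118), and Cntn1 was −2.22 against cycling cells (0.0815); with pseudocount 10 the last 2 were −1.96 (0.0568) and −1.90 (0.0516). At class thresholds of 100 CPM Cntn1 was −2.12 (0.0698), and at 2500 genes per cell Nrcam was 2.17 against cycling cells (0.0602). Without Atf3-positive cells the values that lost their call were −2.05 for Cadm1 against other cells, 2.4985 for Nrcam and −1.83 for Cntn1 against cycling cells, and 14.67 for Gldn against Cdkn1c-high cells (0.0604). Gldn against Cdkn1c-high cells, a fitted value and no bound, was also not called with Cdkn1c at 1000 CPM (15.03), at 1000 genes (15.05) and at 2500 genes (14.40), and at 1000 genes it lost its call against other cells (5.94), which the 1 well with Gldn decided.

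Leaving out a plate gave −2.82 to −1.51 for Cadm1 against other cells, −2.82 to −1.28 against Cdkn1c-high cells, −2.55 to −1.86 for Cntn1, 2.21 to 3.39 for Nrcam and 14.87 to 15.28 for Gldn against Cdkn1c-high cells; the lone sum was assumed to vary like the other classes.

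Some uncalled values changed sign (log2 fold changes). Against cycling cells, Cadm4 in promyelinating cells was 0.28 at 1000 genes, with or without the Gldn well (0.28), and 0.053 at 20 CPM. Against other cells it was −0.15 and −0.10 in limma (pseudocounts 1 and 10), −0.025 with the plate as a replicate block and −0.034 without Atf3-positive cells. For cycling against other cells, Cadm1 was −0.011 at 2500 genes, −0.13 in limma with either pseudocount (−0.13) and −0.08 thinned, and Cadm2 was 0.28 at 2500 genes and 0.51 without Atf3-positive cells. For Cdkn1c-high against remaining other cells, at 2500 genes Cadm1 was 0.11 and Nrcam 0.35, and Cadm3 was 1.16 with the replicate block and 0.59 thinned. Over the plates left out, Cadm1 in cycling against other cells spanned −0.021 to 0.0002, Cadm2 in promyelinating against other cells −0.76 to 3.896, and Nrcam between high and low Ncmap −0.36 to 0.71. In Cdkn1c-high against remaining cells, Cadm3 spanned −7.85 to 6.28, Cadm4 −2.04 to 0.11 and Cntn1 −1.75 to 0.33. Cadm4 also spanned −0.27 to 0.38 in cycling against other cells, −0.71 to 2.03 between high and low Ncmap, −0.33 to 2.33 in promyelinating against Cdkn1c-high cells and −0.27 to 0.24 against other cells.

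Counts of called genes moved more. For promyelinating against other cells (237 genes) DESeq2 called 1015, limma with pseudocount 1 88, no filter 521, thinned cells 432 and cells without Atf3 126, and leaving out a plate 192 to 193. Against cycling cells (788) DESeq2 called 2305, no filter 1288, and leaving out a plate 1171 to 1192. For cycling against other cells (132) the counts were 805 in DESeq2, 224 in limma with pseudocount 10, 316 without a filter, 246 thinned and 12 to 17 without a plate. Against Cdkn1c-high cells (76) they were 880 in DESeq2, 37 in limma with pseudocount 1, 359 without a filter, 147 thinned and 147 to 219 without a plate. For Cdkn1c-high against remaining cells (9) they were 19 with Cdkn1c at 1000 CPM, 1 at 2500 genes, 20 and 15 at class thresholds of 100 and 20 CPM, 986 in DESeq2, 300 without a filter, 37 with the plate as a replicate block, 54 thinned, 3 without Atf3-positive cells and 31 to 82 without a plate. Between high and low Ncmap (7) they were 3 at 2500 genes, 2 at 100 CPM, 752 in DESeq2, 0 and 0 in limma with either pseudocount, 264 without a filter and 90 to 208 without a plate. The replicate block changed no call of the 8 genes. Except for the 1 well of Gldn, the cause was not tested.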
